A study of Oryctolagus cuniculus with 10 samples.

Results

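The heat shock proteins and DNAJ cochaperones of rabbit liver were compared between a control diet and a diet with squalene. The genes were taken from the symbols of the deposited comparison: the HSP90, HSPA, HSPB, DNAJA, DNAJB and DNAJC families, HSPH1, HSPD1 and HSPE1. HSPA5 and DNAJB9, 2 genes of the endoplasmic reticulum, were not among them. The rule gave 64 of the 19123 genes in the table, 24 with a heat shock protein symbol and 40 with a DNAJ symbol. The rabbits (*Oryctolagus cuniculus*) were wildtype New Zealand white males. Feeding lasted 4 weeks. The diet of the control group, 5 rabbits, contained 1% sunflower oil, and that of the squalene group, also 5 rabbits, contained 0.5% squalene besides the oil. The study states that food was withdrawn before the livers were taken, a step common to both groups. Whole liver was sampled, so that fewer cells of a type and less RNA per cell cannot be told apart.

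Heat shock proteins are molecular chaperones, which bind unfolded or partly folded proteins and help them to fold, to reassemble or to be degraded. The HSP70 chaperones (HSPA family) work in a cycle: a J-domain protein (DNAJ) delivers the client and stimulates the ATPase, and a nucleotide exchange factor then opens the chaperone and releases the client. HSP90 takes over late folding steps of receptors and kinases, the small heat shock proteins (HSPB) hold unfolded clients without ATP, and HSPD1 and HSPE1 form the folding chamber of mitochondria. Part of the system is always present, and another part is transcribed upon heat or misfolding through the factor HSF1.

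For each gene the table holds 1 level per diet, a value of the authors, and no value per rabbit. The ratio of the squalene level to the control level was therefore a description with no replicate check, no standard error and no p-value. In most levels the decimal mark had been lost. The ratio was recovered to the nearest power of 10, which assumes that a gene differs by less than 3.16-fold between diets. The study names genes with larger differences, none of them a member, so the assumption does not hold over the whole table. For members with levels of 1 or more it was not checked, since the authors' own fold changes were not used. Ratios are given as fold of the control level or on the log2 scale, where a positive value is a higher level on squalene, and called means past 1.5-fold in either direction. Levels themselves are given only where both were under 1, since these kept their decimal mark.

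Most chaperone genes had similar levels in both diets. Of the 64 members, the squalene level was higher than the control level in 35 and lower in 29. This share of higher members, 54.7%, lay near the 52.7% of all genes that were higher. The median log2 ratio was 0.07 over the members and 0.02 over all genes. Members ranged from -0.50 to 0.62 with quartiles of -0.10 and 0.21, and the quartiles of all genes were -0.18 and 0.22. Only DNAJC12 was past 1.5-fold, 1.56% of the members, where 7.69% of all genes were. Among all genes 4.70% were past 1.5-fold higher and 3.00% lower. No member was past 2-fold in either direction, a size that 0.999% of all genes had (0.633% higher and 0.366% lower). At a smaller limit, a log2 ratio of 0.32 in size, 14 members were past it, 9 higher (14.1%, all genes 16.4%) and 5 lower (7.81%, all genes 12.8%). Of the 9 higher, HSPA6 and HSPA2 were only just past it, both at 0.3222 against a limit of 0.3219. In either direction this limit took in 29.2% of all genes. On either side of the 1.5-fold limit stood DNAJC12 at 1.54-fold and DNAJB4 and DNAJC19 at 1.43-fold. On the lower side the nearest was HSP90AA1, whose control level was 1.42 times the squalene level.

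**Figure D1:**
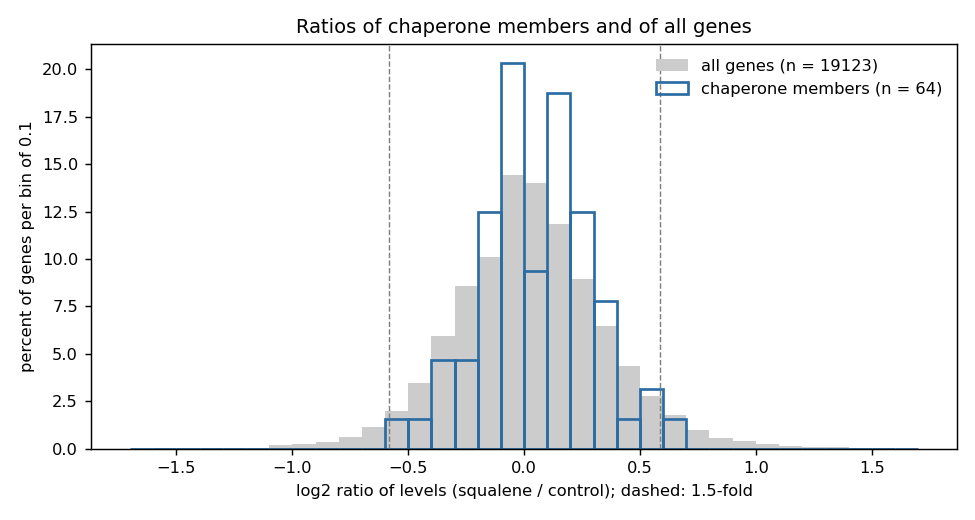
Distribution of the log2 ratio of the squalene to the control level, in percent of genes per bin of 0.1, for 64 chaperone members (blue outline) and all 19123 genes (grey); dashed lines mark 1.5-fold. The members lie between -0.50 and 0.62, and 1 of them is past a dashed line.

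Medians of the families stood between -0.28 (HSPH1 alone) and 0.12 (HSPA). The HSPA family had 6 of 10 members higher, HSPB 5 of 8 (median 0.10), DNAJA 2 of 4 (median 0.10), DNAJB 6 of 10 (median 0.05), DNAJC 14 of 26 (median 0.07) and HSP90 1 of 3 (median -0.18). These medians stand within the quartiles of all genes except for HSP90 and HSPH1, which hold 3 genes and 1 gene.

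**Figure D2:**
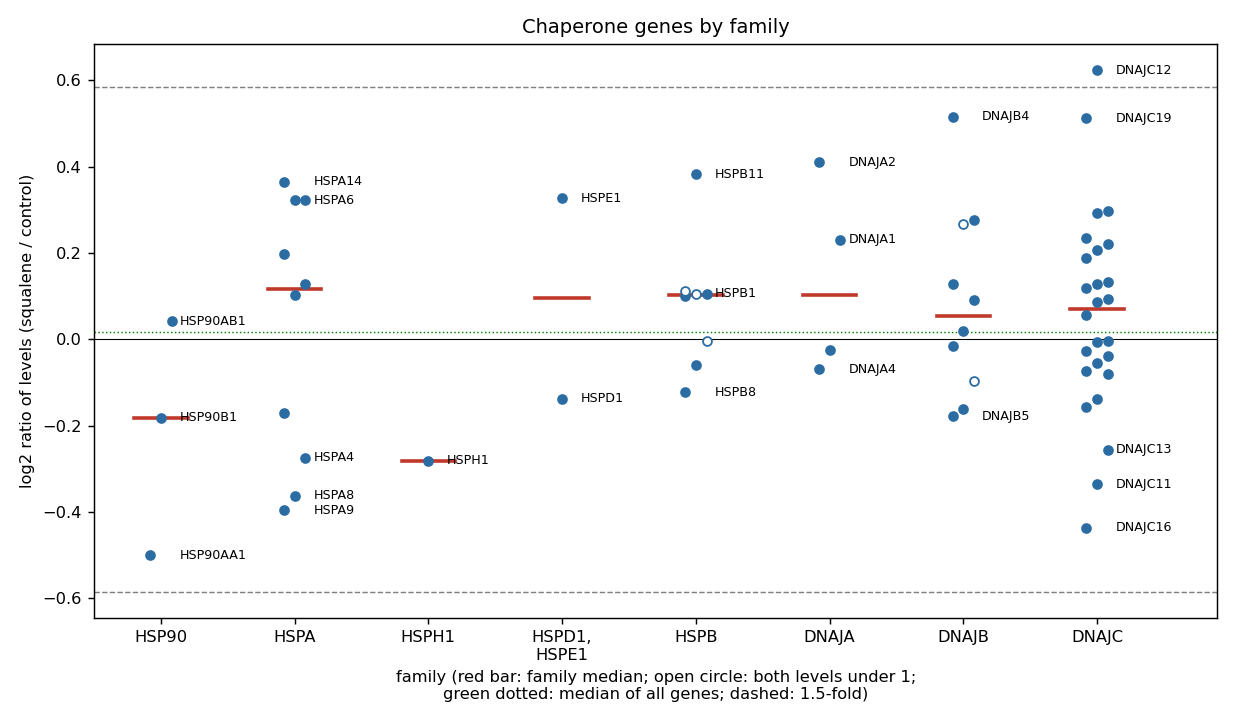
Log2 ratio of the squalene to the control level for each of the 64 members, by family; red bars are family medians, open circles are members with both levels under 1, the green dotted line is the median of all genes and dashed lines mark 1.5-fold. DNAJC12 at 0.62 is the member past a dashed line, and HSP90AA1 at -0.50 is the lowest.

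The HSP90 genes differed among themselves. HSP90AA1, the cytosolic form that heat induces, was at 0.707 of its control level (log2 ratio -0.50), the lowest ratio of all members and lower than that of all but 4.75% of genes. HSP90AB1, the cytosolic form that is made at all times, was at 1.03-fold (log2 ratio 0.04). Between these paralogs the log2 ratios stood 0.54 apart. HSP90B1, the form of the endoplasmic reticulum, was at 0.882 of control.

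In the HSPA family 4 of 10 members had lower levels on squalene. HSPA8, the constitutive HSP70 of the cytosol, was at 0.778 of its control level. HSPA9, the mitochondrial HSP70 that pulls proteins through the inner membrane, was at 0.760 of control and the lowest of its family. HSPA4, HSPA4L and HSPH1, which has a family of its own here, are HSP110-type proteins that act as exchange factors of HSP70. They were at 0.827, 0.888 and 0.823 of control. All 3 of them thus had log2 ratios between -0.28 and -0.17. Against the median of genes in its class of length, HSPA4 was at -0.16, HSPA4L at -0.06 and HSPH1 at -0.27. HSPA14 was the highest of the family at 1.29-fold. It is known in human cells to form a ribosome-bound pair with DNAJC2, which was at 1.18-fold. HSPA6, an HSP70 that in human cells is nearly silent until stress, and HSPA2, best known from testis, both had a log2 ratio of 0.32. The atypical members HSPA12A and HSPA12B were at 1.09- and 1.15-fold, and HSPA13, a microsomal protein, was at 1.07-fold.

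HSPD1 and HSPE1 are the chaperonin and the lid of 1 mitochondrial complex, and their ratios lay on opposite sides of 1. HSPD1 was at 0.909 of control, a log2 ratio of -0.14, and HSPE1 had a log2 ratio of 0.33, a distance of 0.47. The HSPE1 transcript of 873 bases is much shorter than the HSPD1 transcript of 2534 bases. With each gene set against the median of genes in its class of length, 0.34 of this distance was left.

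Of the 8 HSPB genes 5 had higher levels on squalene, and log2 ratios ran from -0.12 to 0.38. HSPB1, the most widely expressed small heat shock protein, was at 1.08-fold. HSPB8, which works with BAG3 in autophagy of aggregates, was the lowest of the family at 0.918 of control. HSPB11 was at 1.30-fold. RefSeq lists this gene as IFT25, a part of the particle that moves cargo in cilia, so that it belongs to the family by symbol more than by function. HSPB2 and HSPB6, both best known from muscle, were at 1.07-fold and 0.959 of control. The others stood close to the lowest levels of the table. HSPB3 had levels of 0.367 on control and 0.395 on squalene, HSPB7 of 0.214 on both, and HSPB9 of 0.129 and 0.139. The pair of levels of HSPB9 was shared by 99 genes and that of HSPB7 by 13, so neither ratio is a measurement of that gene alone.

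DNAJA and DNAJB proteins are the partners that bring clients to HSP70, and 8 of the 14 had higher levels on squalene. DNAJB4, a cytosolic J protein induced by heat, was at 1.43-fold, the highest of its family. DNAJA2 and DNAJA1, the general J proteins of the cytosol, were at 1.33- and 1.17-fold. DNAJB14, a J protein anchored in the membrane of the endoplasmic reticulum, was at 1.21-fold. Its close relative DNAJB12 was at 0.990 of control. DNAJA3, of the mitochondrial matrix, was at 0.983 of control. DNAJA4 was the lowest of the DNAJA family at 0.953 and DNAJB5 the lowest of the DNAJB family at 0.884. DNAJB6 and DNAJB2, which act against aggregation, were at 1.06- and 1.01-fold, and DNAJB7 was at 1.09-fold. DNAJB3 had levels of 0.383 on control and 0.461 on squalene, and DNAJB13, an axonemal protein, of 0.488 and 0.456.

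The 26 DNAJC genes share the J domain and little else, and they held both the highest member and several of the lowest. DNAJC12, known in humans as the partner of phenylalanine hydroxylase and other aromatic amino acid hydroxylases, was at 1.54-fold (log2 ratio 0.62). Its ratio was above that of 96.2% of genes. DNAJC19 and DNAJC15, both J proteins at the motor that imports proteins into mitochondria, were at 1.43- and 1.16-fold. Their mitochondrial HSP70 partner is HSPA9, at 0.760 of control. DNAJC11, a mitochondrial protein associated with the complex that shapes cristae, was at 0.792. DNAJC16 was the lowest of the family at 0.739 of control, and DNAJC13, which acts on endosomes, was at 0.837.

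Other DNAJC genes had smaller ratios. DNAJC24, needed for the diphthamide of elongation factor 2, and DNAJC4 were both at 1.23-fold. DNAJC21, a ribosome assembly factor, was at 1.15-fold. Of the genes linked to splicing, DNAJC17 was at 1.14-fold and DNAJC8 at 0.897 of control. DNAJC7, which binds both HSP70 and HSP90, was at 1.10-fold, and DNAJC9, a chaperone of histones, was at 0.981 of control. DNAJC6, or auxilin, which uncoats clathrin vesicles, was at 1.07-fold. DNAJC5, the cysteine string protein of secretory vesicles, was at 0.950. DNAJC18, DNAJC22 and DNAJC27 lay between 1.06- and 1.09-fold. DNAJC14, DNAJC25, DNAJC28 and DNAJC30 lay between 0.909 and 0.973 of control.

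Members were placed in compartments from general knowledge, and the placing may be incomplete. The 8 members placed in the endoplasmic reticulum had a median log2 ratio of -0.01, with 3 of 8 higher. Among these, DNAJC3, a cochaperone of HSPA5, and DNAJC10, which reduces disulfide bonds, were at 0.995 and 0.997 of control, DNAJC1 was at 1.04-fold, and DNAJB11, a cofactor of HSPA5, was at 0.895. The rule left out HSPA5, the HSP70 of this compartment, which was at 0.669 of control (log2 ratio -0.58), and DNAJB9, its J protein, which was at 1.19-fold. The 8 members placed in mitochondria also had 3 higher, with a median of -0.04. The 48 members placed in neither had 29 higher and a median of 0.10.

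A list of heat-inducible chaperones, which also holds the constitutive forms HSPA8 and HSP90AB1, had ratios on both sides of 1. Of the 14 genes listed, 12 were matched, 7 of them higher and 5 lower. Their median log2 ratio was 0.07, and none was past 1.5-fold, where 7.69% of all genes were. The highest was DNAJB4 and the lowest HSP90AA1, with the values given above. This count leaves out the main inducible genes of the list. HSPA1A and HSPA1B were not matched by symbol or gene ID, and DNAJB1, the main inducible J partner of HSP70, was matched by gene ID to a row that the table describes as a noncoding RNA, with levels of 0.283 on control and 0.353 on squalene. That row was then replaced by the 4 rows described as mRNA of HSP70 protein 1B, a 1B-like protein or DNAJB1. This choice was made after values had been seen. Of the resulting 15 rows 6 were higher and 9 lower, with a median of -0.17. The 4 rows were past 1.5-fold lower (26.7% of 15), where 3.00% of all genes were. As they were picked with values in view, nothing is read from this share.

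The table also held 20 rows outside the symbol rule that it describes as HSP70, HSP90, HSP10 or DnaJ proteins. They were collected after values had been seen. Of these, 12 have a LOC symbol and 8 are genes predicted by the authors without a reference ID. In this set 7 rows (35%) were past 1.5-fold, 4 lower and 3 higher, where 7.69% of all genes were past it. As the rows were collected with values in view, nothing is read from this share. The copies of the inducible HSP70 protein 1B had the lowest ratios. LOC100354435 was at 0.479, LOC100354037 at 0.552 and the 1B-like LOC100353783 at 0.624 of control. LOC100345293, described as DNAJB1 and only 532 bases long, was at 0.637. LOC100353534, the HSP70 1-like gene best known from testis, had levels of 0.0892 on control and 0.0847 on squalene, the lowest level in the table. Since 83 genes share this pair of levels, it is no measurement of that gene alone. The 3 rows past 1.5-fold higher are predicted genes of 360 to 785 bases described as HSP90-beta, at 1.53- to 1.68-fold. A longer predicted gene described as HSP90-beta, of 1460 bases, was at 0.963 of control. The predicted gene described as HSP90-alpha, of 484 bases, was at 0.788 of control.

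Where copies are nearly identical, the authors' estimate of levels can split reads between them, and the share of each copy is uncertain. LOC100356572, a pseudogene of HSPA8, was at 1.30-fold while HSPA8 was at 0.778 of control. LOC100349056, described as DNAJC24, was at 0.773 of control while DNAJC24 was at 1.23-fold. For DNAJC8 the related row LOC100349535 was at 1.15-fold. The row related to HSPE1, LOC100356803, was at 1.18-fold, on the same side as HSPE1. LOC100346508 of DNAJA1 and LOC100341181 of DNAJB6 were at 0.968 of control and 1.04-fold, and LOC103348580, described as HSP90-alpha-like, was at 0.850 of control, on the same side as HSP90AA1. Whether the ratios of HSPA8, DNAJC24, DNAJC8, DNAJA1, DNAJB6, HSPE1 and the HSP90 genes move with the assignment of shared reads was not tested.

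Partners and regulators of the chaperones, in 5 lists with 51 matched genes, had 29 genes higher (56.9%, all genes 52.7%) and a median log2 ratio of 0.03. The 4 regulators held HSF2 at 1.33-fold as the highest and HSF4 at 0.833 of control as the lowest, and HSF1 was at 0.940 of control. Of 10 exchange factors 4 were higher, with a median of -0.10. BAG3, a cochaperone of HSP70 in autophagy that is induced by stress, was at 0.662 of control, and HYOU1, the HSP110-type exchange factor of the endoplasmic reticulum, at 0.665. HSPBP1 was the highest exchange factor with a log2 ratio of 0.32. Of 15 HSP90 cochaperones 8 were higher, with a median of 0.02. FKBP5, an immunophilin of the glucocorticoid receptor complex and itself a glucocorticoid target, was the lowest of the 51 genes at 0.510 of control. ST13, which binds HSP70, was the highest of these cochaperones at 1.44-fold. STIP1, which links HSP70 to HSP90, was at 0.789 of control.

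The cytosolic chaperonin CCT and prefoldin, which fold actin and tubulin, had 10 of 14 genes higher (71.4%, all genes 52.7%) and a median of 0.12. The lower genes were TCP1, CCT3, CCT5 and CCT6A, all of the chaperonin. Most transcripts of this list are under 2000 bases. Of all genes under 1000 bases 65.7% were higher, and of those from 1000 to under 2000 bases 63.9%. The part of length in this list was not tested. PFDN4, a prefoldin subunit of 787 bases, was at 1.63-fold and CCT6A the lowest at 0.870 of control. Among 8 mitochondrial chaperones and proteases the highest was CLPX, at 1.40-fold, and the lowest LONP1, at 0.789 of control. CRYAB, a small heat shock protein with a crystallin symbol, was at 0.703 of control. The genes past 1.5-fold in the 5 lists were BAG3, HYOU1, FKBP5 and PFDN4, 7.84% of the 51 genes, near the 7.69% of all genes. The reference genes PPIB and GAPDH had log2 ratios of -0.08 and -0.02.

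**Figure D3:**
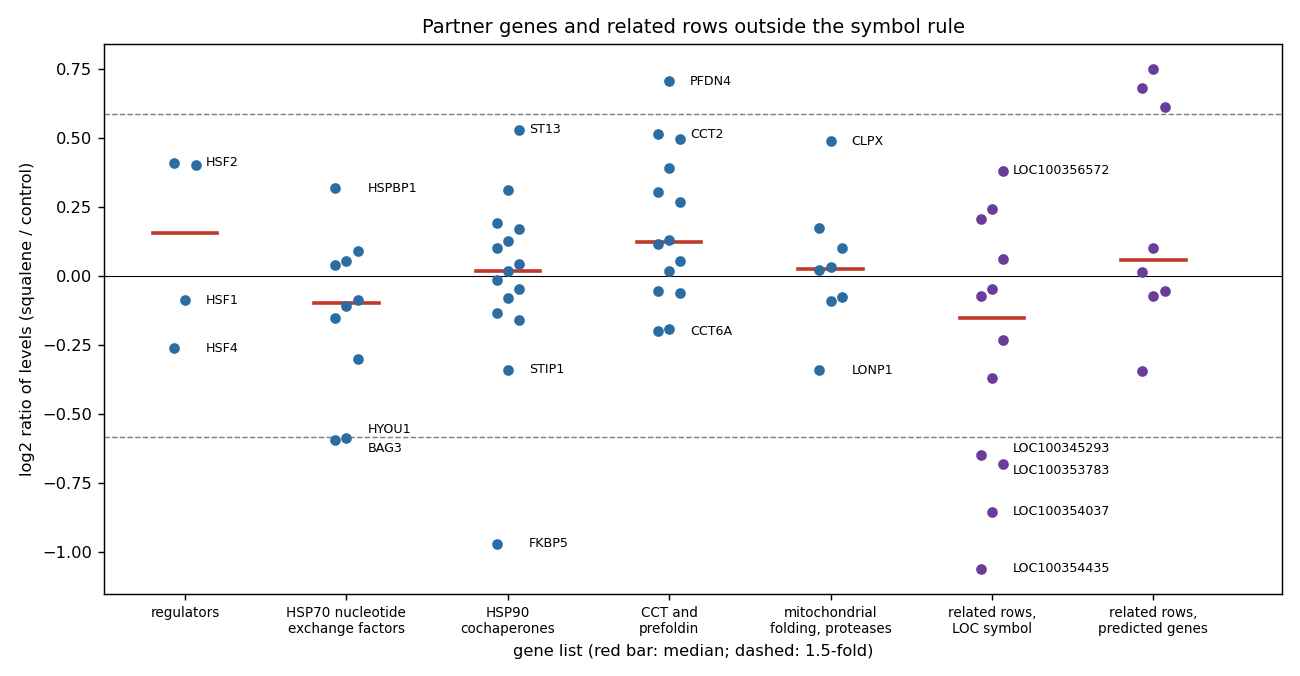
Log2 ratio of the squalene to the control level for the genes of 5 partner lists (blue) and for 20 related rows outside the symbol rule (purple); red bars are medians and dashed lines mark 1.5-fold. FKBP5 at -0.97 is the lowest partner gene, and LOC100354435 at -1.06 the lowest related row.

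Ratios were lower for longer transcripts. Across the 64 members Spearman's rho between length and log2 ratio was -0.36, across all 19123 genes it was -0.28, and genes are not independent replicates. All 8 members under 1000 bases had higher levels on squalene, with a median log2 ratio of 0.17, among them DNAJC19, HSPB11 and HSPE1. Of all genes of this length 65.7% were higher, with a median of 0.11. The 8 include HSPB3 and HSPB9, with both levels under 1, and the pair of HSPB9 is shared by 99 genes. From 1000 to under 2000 bases 9 of 17 members were higher (all genes 63.9%), with a median of 0.13 (all genes 0.09). From 2000 to under 4000 bases 11 of 28 were higher (all genes 48.7%), with a median of -0.01 (all genes -0.01). Of the 11 members with 4000 or more bases 7 were higher (all genes 34.2%). Their median of 0.09 lay above that of all such genes, -0.11. Against the median of its own class of length, HSP90AA1 stayed at -0.49 and DNAJC12 went from 0.62 to 0.53, under the 1.5-fold limit. The median of the HSPB family, which holds short transcripts, went from 0.10 to -0.01.

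**Figure D4:**
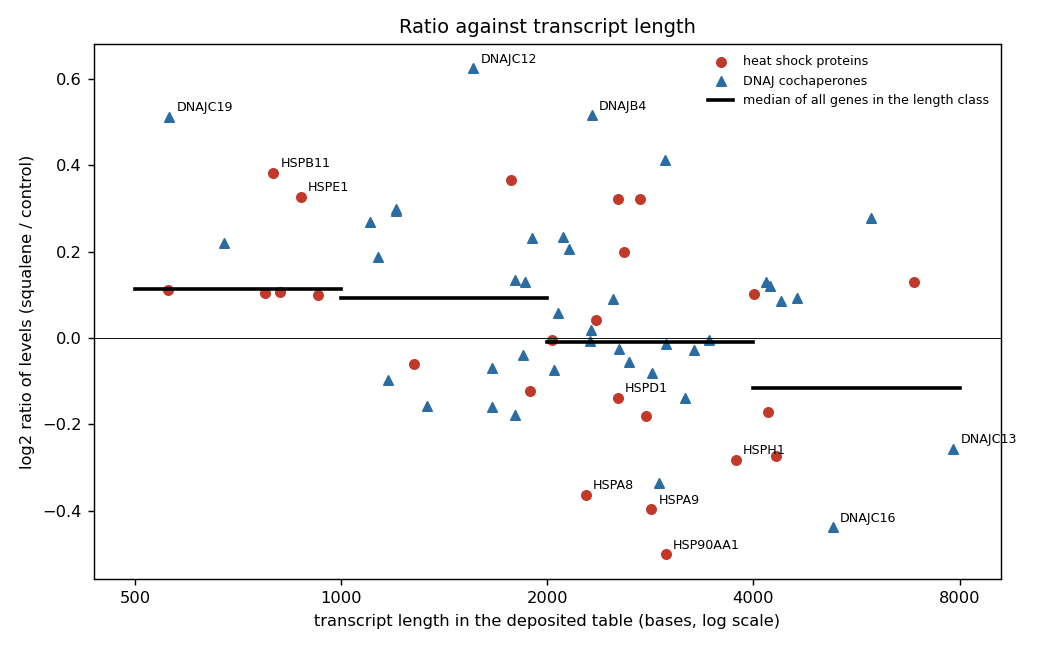
Log2 ratio of the squalene to the control level against transcript length (bases, log scale) for 24 heat shock proteins (red) and 40 DNAJ cochaperones (blue triangles); black bars are the medians of all genes in 4 length classes. The 8 members under 1000 bases all lie above 0. Of all genes of this length 65.7% were above 0. The black bars go from 0.11 down to -0.11.

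Libraries and cell type markers gave further values that stood beside these ratios. The 10 libraries had 45.26 to 46.12 M clean reads, where M is 1000000 reads, and reads from ribosomal RNA made up 0.23% to 0.79% of a library (median 0.30%). The names of the libraries carry a diet but match no single sample label, so no test between diets is given. By the diet in the names, the ribosomal share looked higher in squalene than in control libraries, but it was not summarised by diet. Its part in the ratios of chaperone genes was not tested. Of 7 hepatocyte markers 6 were matched, all with levels of 1 or more, and 5 of them were higher on squalene (median log2 ratio 0.13). TTR, with a transcript of 617 bases, was the highest at 0.43 and CPS1, of 5592 bases, the lowest at -0.39. All 6 endothelial markers were lower, with log2 ratios from -0.40 for STAB2 to -0.16 for LYVE1. Their transcripts are long, from 2749 bases (LYVE1) to 8799 bases (VWF). Of all genes from 2000 to under 4000 bases 48.7% were higher, and of those with 4000 or more bases 34.2%. The part of length in the hepatocyte and endothelial markers was not tested. HSPA12B, which is known from endothelium, was at 0.20. All 4 matched blood and neutrophil markers were lower as well, S100A8 at -0.67 and ALAS2 at -0.04. Kupffer cell markers had 4 of 5 higher (median 0.14), from MARCO at -0.12 to CD5L at 0.46. Of the stellate cell and fibroblast markers 4 of 6 were higher (median 0.05), from COL1A1 at -0.26 to DCN at 0.34. Cholangiocyte markers had 2 of 4 higher (median -0.06), from KRT7 at -0.30 to EPCAM at 0.52, and lymphocyte markers 3 of 4 (median 0.28), from NKG7 at -0.38 to CD2 at 0.43. Of 13 striated muscle markers 7 were matched, with a median of 0.13, from ACTA1 at -0.10 to ACTC1 at 0.83. Of these, 2 (MYH1 and TNNC1) had both levels under 1. The part of these cell types in the chaperone ratios was not tested. None of the 46 alternative splicing events in the deposited tables was in a member.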

How the data were processed

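Poly-A RNA of 10 rabbit livers, 5 per diet, was sequenced on the DNBseq platform. Partial pooling of the sequenced samples is mentioned in a legend of the study, whereas 5 animals per diet are given elsewhere in it and in the labels. HISAT2 was used by the authors for mapping to OryCun2.0, and they made gene levels with Bowtie and RSEM. Versions, and how 1 level per diet was computed and scaled, are not given in the sources used here. The deposited comparison also holds the authors' log2 fold changes, p-values and adjusted p, which were not used. Site tables, which are made with GATK and hold the base called in each library, were not used because members could not be placed in them. The deposited library sheets give clean reads and the ribosomal share in percent for 10 libraries in 2 columns, whose entries could be assigned to no sample and are given as ranges.

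The planned description with no test was kept, since no level per rabbit was analysed here. Of the levels, those of 1 or more had lost their decimal mark. Each ratio was therefore taken to the nearest power of 10, which reads any difference of 3.16-fold or more wrongly. The study names such genes, none of them a member. No level was 0, although the study counts fewer genes as expressed in each diet than have a level here. In all, 1937 genes share their pair of levels with another gene. The levels may thus not be plain means over rabbits. Whether the ratios, and so the counts past 1.5-fold, are drawn toward 1 was not tested. Of 2953 genes with both levels under 1, 1.15% were past 1.5-fold, against 8.89% of the other 16170, so that ratios of low genes stand nearer to 1. Depth per gene is unknown, and no counting interval can be given.

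Members and lists were chosen with earlier results of these data known. Named were the heat-inducible list, the highest and lowest of each family and list, the 8 highest and 8 lowest members, every gene past 1.5-fold, PPIB, GAPDH, HSPA5 and DNAJB9. Any further gene was picked with its value in view. Roles and compartments come from general knowledge. By gene ID, 62 of 64 members were found in RefSeq (mOryCun1.1), 60 under the same symbol, and no coordinate was used. Alternatives were other centrings, folds, backgrounds and sets of rows. Python 3.11.15, numpy 2.4.6, pandas 2.3.3, scipy 1.17.1 and matplotlib 3.10.9 were used.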

Additional observations from a re-analysis of the deposited data

How the results depend on the processing

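One member, DNAJC12, was past 1.5-fold with ratios as recovered from the levels. There were 14 past the lower fold (log2 ratio 0.32), 21.9% of members, where 29.2% of all genes were. At 2-fold there were 0 (all genes 0.999%). With the related rows added, 8 of 84 were past 1.5-fold (9.52%, all genes 7.69%). There were 0 when ratios were centred on the median of genes of similar length, where DNAJC12 was at 0.53. That centring also took the median log2 ratio of the HSPB family from 0.10 to -0.0086. It turned the sign of 7 members, all with log2 ratios of at most 0.11 in size, and centring on PPIB and GAPDH turned 7, of at most 0.04. Centring on the median of all genes turned none. In the heat-inducible list, the noncoding row was replaced by the rows described as HSP70 protein 1B and DNAJB1 mRNA. Genes past 1.5-fold then went from 0 of 12 to 4 of 15 (all genes 7.69%), and lower genes from 5 to 9. The length, related-row and heat-inducible alternatives were added after seeing the data. No paired analysis was possible because the table gives 1 level per diet and no value per rabbit. For the same reason no rabbit was left out for the ratios. The alternatives for splicing and sites were not run, since no event was in a member and sites could not be placed. Depth per gene and the spread between rabbits are unknown, so no ratio can be set against replicate error.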
